A study of Mus musculus with 62 samples.

Results

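Muscle-specific overexpression of the coactivator gene Ppargc1a (Pgc1a) was accompanied by 844 regions with lower H3K27ac in the quadriceps, and 453 of them are described here. Acetylation of histone H3 on lysine 27 (H3K27ac) is found where enhancers and promoters are in use. The 453 regions were chosen by measured values in 2 steps. Each was in the authors' list of PGC1α-modified regions (PMRs) that were hypoacetylated in mTg relative to Wt. Each also overlapped, by at least 1 bp, an H3K27ac peak of quadriceps (Quad) and no H3K27ac peak of soleus (Sol). They made up 53.7% of the hypoacetylated PMRs and are called Quad-only hypoacetylated PMRs below. The name sets Quad against Sol only. Of the 453, 348 also overlapped an H3K27ac peak of extensor digitorum longus and 84 one of diaphragm. Of the other 391, 253 overlapped peaks of both muscles, 26 a Sol peak only and 112 neither. Among all 49010 Wt H3K27ac peaks, 1.72% overlapped a hypoacetylated PMR, and among the 8152 Wt peaks with a Quad and no Sol peak the share was 5.56%. The contrast of mTg with Wt and the presence of Quad and Sol peaks defined the set, so their values are given as a description.

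All libraries came from male mice labelled C57BL/6 (C57BL/6J in the study's methods for the purchased wild-type mice), and each histone mark had 2 replicate libraries per group. Wt and mTg were sedentary littermates. The mTg mice carried a Pgc1a transgene (genotype label PGC1a Tg(+)) driven by the muscle creatine kinase promoter, which is active in muscle fibers, and Wt mice were wild type. Ex mice were wild-type animals given running wheels and Sed mice their sedentary wild-type controls. Quad, Sol, EDL (extensor digitorum longus) and Dia (diaphragm) were taken from sedentary wild-type mice. Each Wt, mTg, Ex and Sed sample was the quadriceps of 1 animal, while EDL, Sol and Dia samples pooled several animals. Depth was 11.7 to 24.2 M tags in the 16 H3K27ac libraries, with the mTg libraries lowest. It was 6.41 to 22.7 M tags in 12 H3K4me2 libraries, of which those of Ex and Sed entered no result. A lower level in whole muscle cannot be told apart from fewer fibers of one type in that muscle.

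Skeletal muscles mix fast glycolytic fibers, which contract quickly and burn glycogen, with slow oxidative fibers, which resist fatigue. Quad and EDL of the mouse are mostly fast, Sol is rich in slow fibers, and Dia works continuously. PGC1α drives mitochondrial and oxidative genes in muscle and is induced by endurance exercise.

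Markers of cell types were read first. All 5 muscle fibre markers (Acta1, Ckm, Ttn, Neb and Des) were the nearest gene of an H3K27ac peak in both Wt and mTg. The same held for all 6 endothelial and all 5 fibro-adipogenic markers, so a peak nearby does not set muscle apart from other cells. Of the 26 markers of other cell types, 1 was nearest to a Quad-only hypoacetylated PMR, the collagen gene Col3a1. No endothelial, leukocyte, satellite cell, Schwann cell or smooth muscle marker was nearest to one. Among all genes nearest to a Wt or mTg H3K27ac peak the share was 2.53%, so counts this small say little about other cell types. The endothelial marker Emcn was nearest to a hyperacetylated PMR. By qPCR the paper found macrophage and endothelial markers raised in mTg muscle, and proposed that altered cellularity could contribute to its signals. The part of other cell types in the lower levels was not tested.

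To show what these regions look like, 160 bases are given around the centre of the highest-scoring accessible site (ATAC-seq peak of control Quad) inside 7 of them. They are read from the forward strand of the mm10 reference (GRCm38.p6), 5′ to 3′. The first 3 are among the largest differences, and the other 4 hold one of the factor words counted below; they were picked after the values were seen. Capitals mark the words searched, on either strand: GGAATG (TEAD), CAGCTG (E-box of myogenic factors), TGANTCA (AP-1), AGGTCA (half-site of nuclear receptors) and the MEF2 word, CTA and TAG separated by 4 bases of any kind. The coordinates are chr13:109354157-109354316 (nearest to Mir582, in an intron of Pde4d), chr7:46204358-46204517 (nearest to Abcc8, in an intron of Ush1c), chr2:131506393-131506552 (intron of Smox), chr15:78211488-78211647 (intergenic, upstream of Pvalb), chr2:179641067-179641226 (intron of Cdh4), chr15:6787359-6787518 (intron of Rictor) and chr2:48079532-48079691 (intergenic, nearest to Acvr2a).
Mir582: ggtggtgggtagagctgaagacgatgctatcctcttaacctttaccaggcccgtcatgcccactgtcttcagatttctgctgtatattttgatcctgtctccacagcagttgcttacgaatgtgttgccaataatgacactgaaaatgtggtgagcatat
Abcc8: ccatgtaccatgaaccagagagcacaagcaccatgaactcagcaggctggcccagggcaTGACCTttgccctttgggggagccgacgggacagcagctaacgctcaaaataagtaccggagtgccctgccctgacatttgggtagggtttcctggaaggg
Smox: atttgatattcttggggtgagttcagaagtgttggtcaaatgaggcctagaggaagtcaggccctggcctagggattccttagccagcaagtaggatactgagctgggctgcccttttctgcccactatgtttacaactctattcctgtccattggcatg
Pvalb: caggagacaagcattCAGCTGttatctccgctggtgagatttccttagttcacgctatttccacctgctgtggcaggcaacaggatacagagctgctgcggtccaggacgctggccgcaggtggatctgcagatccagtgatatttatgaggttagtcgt
Cdh4: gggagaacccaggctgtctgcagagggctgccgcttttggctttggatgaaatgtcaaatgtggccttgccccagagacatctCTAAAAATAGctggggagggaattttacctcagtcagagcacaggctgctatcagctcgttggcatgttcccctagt
Rictor: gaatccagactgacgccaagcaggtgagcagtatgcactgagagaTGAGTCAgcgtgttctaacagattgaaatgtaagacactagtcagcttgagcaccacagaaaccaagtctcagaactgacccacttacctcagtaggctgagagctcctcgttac
Acvr2a: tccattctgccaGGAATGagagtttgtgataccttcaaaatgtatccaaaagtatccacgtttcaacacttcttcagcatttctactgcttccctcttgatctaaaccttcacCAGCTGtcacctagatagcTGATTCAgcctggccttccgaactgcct
The Mir582 and Smox windows held none of the words. The Abcc8 window held a nuclear receptor half-site, the Pvalb window an E-box, the Cdh4 window a MEF2 word and the Rictor window an AP-1 word. The Acvr2a window held TEAD, E-box and AP-1 words. A match is a description of the letters and not a bound site.

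The Quad-only hypoacetylated PMRs were distal. Introns held 273 of them (60.3%) and intergenic sequence 156 (34.4%), while 2 were at promoters (0.442%, against 10 of 391, or 2.56%, of the other hypoacetylated PMRs). The annotation counts as promoter the 1000 bp before and 100 bp after a transcription start site (TSS). The remainder lay in 3′ UTRs (9), exons (7), transcription termination sites (5) and a 5′ UTR (1). The median distance to the nearest TSS was 31322 bp, with 90 regions within 10 kb and 80 more than 100 kb away. Widths ran from 501 to 12787 bp with a median of 1894 bp, against 1926 bp for the other hypoacetylated PMRs and 1094 bp for the Wt peaks of Quad without Sol. Of the 453, 432 had the exact interval of a Wt peak.

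They were spread over 386 nearest genes, 332 of which had 1 region each, so a nearest gene is a landmark rather than a target. For 195 of the 294 regions inside a transcript that the RefSeq table names, the host gene and the nearest gene were the same, and for 99 they differed. Regions within 100 kb of each other formed 61 clusters that held 141 of the 453 (31.1%).

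H3K27ac levels in the list of hypoacetylated PMRs are regularized log2 tag values, normalized over the 4 libraries. Over the 453 regions the mean level was 6.04 and 6.13 in the Wt libraries and 5.39 and 5.37 in the mTg libraries. That is 6.09 ± 0.063 in Wt and 5.38 ± 0.0096 in mTg (SD, n = 2). The median difference of mTg minus Wt was -0.65, with an interquartile range from -0.83 to -0.52 and extremes of -2.13 and -0.37. In all 453 regions both Wt libraries were above both mTg libraries, as the authors' choice of regions would give, and 58 regions were lower by more than 1 on the log2 scale. The median difference of the other hypoacetylated PMRs was -0.61. Across the 453 regions, the difference went with the Wt level (Spearman's rho -0.80) and with width (-0.70): stronger and wider regions had larger differences. The part of the log transform in this order was not tested, and no p-value accompanies these correlations over regions that share 4 libraries.

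**Figure D1:**
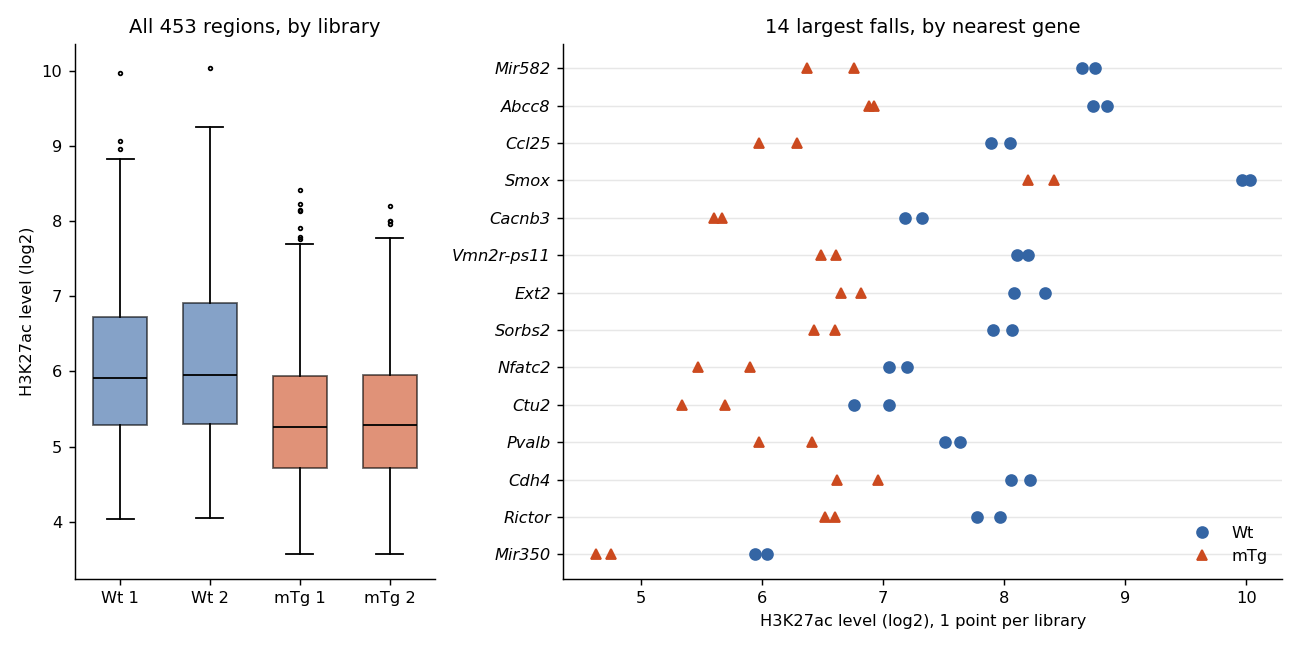
H3K27ac levels (log2) in the Wt and mTg libraries. Left, boxes over all 453 Quad-only hypoacetylated PMRs in each library (line: median; box: quartiles; whiskers: 1.5 times the interquartile range), with medians of 5.92 and 5.96 in Wt and 5.26 and 5.29 in mTg. Right, both libraries of each group for the 14 regions with the largest difference, labelled by nearest gene; Wt and mTg points are separate in all 14.

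The largest difference was at a 6600 bp region, chr13:109349778-109356377, in intron 3 of Pde4d, a phosphodiesterase that degrades cyclic AMP. Its nearest annotated TSS is that of the microRNA gene Mir582. Levels were 8.64 and 8.75 in Wt and 6.76 and 6.37 in mTg, a difference of -2.13. A pair of neighbouring regions in the same intron differed less, by -0.93 and -0.55.

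Next in size was chr7:46201824-46206379, in intron 15 of Ush1c and nearest to Abcc8, which encodes the sulfonylurea receptor subunit of ATP-sensitive potassium channels. It measured 8.74 and 8.85 in Wt and 6.92 and 6.89 in mTg (difference -1.89). Both mTg libraries lay well below both Wt libraries. At the remaining regions nearest to Abcc8 the difference was -0.57 and -0.50.

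Smox, the gene of spermine oxidase in polyamine breakdown, held the widest region of the set, 12787 bp in intron 1 (chr2:131500735-131513521). It also had the highest level, 9.96 and 10.03 in Wt against 8.41 and 8.20 in mTg. The difference was -1.69, and a peak was still called there in mTg. Of the 12 polyamine genes in the list of pathway genes, Smox was the one nearest to a Quad-only hypoacetylated PMR. In that list 2 genes were nearest to other hypoacetylated PMRs and 1 to a hyperacetylated PMR. Over all genes nearest to a Wt or mTg H3K27ac peak, 2.53% were nearest to one of the 453.

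A region in the chemokine gene Ccl25 (chr8:4329266-4333322, intron 2) had 7.89 and 8.05 in Wt and 6.29 and 5.97 in mTg. One far from genes, nearest to the vomeronasal receptor pseudogene Vmn2r-ps11 (chr3:64963508-64968477, intergenic) had 8.20 and 8.11 in Wt and 6.48 and 6.61 in mTg. The region nearest to Ctu2, a tRNA thiolation gene, lay in intron 5 of Piezo1, a mechanically gated ion channel, with 6.76 and 7.04 in Wt and 5.69 and 5.33 in mTg. The differences of these 3 were -1.84, -1.61 and -1.39.

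Upstream of Cacnb3, a beta subunit of voltage-gated calcium channels (chr15:98627364-98630619, intergenic), levels were 7.18 and 7.32 in Wt and 5.67 and 5.60 in mTg, a difference of -1.62. At Pvalb, the calcium buffer of fast fibers, the upstream region (chr15:78209133-78212960) had 7.63 and 7.51 in Wt and 6.41 and 5.97 in mTg, a difference of -1.38. Nfatc2, a calcineurin-activated transcription factor, had a region in intron 2 (chr2:168560938-168564056) with 7.05 and 7.20 in Wt and 5.47 and 5.90 in mTg, and a weaker one 117201 bp from the TSS. Their differences were -1.44 and -0.55. At both Nfatc2 regions an H3K4me2 peak was called in Sol.

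Jph1, which ties the sarcoplasmic reticulum to the transverse tubule, had 8.29 and 8.51 in Wt and 7.69 and 7.54 in mTg. Camk2a, a calcium/calmodulin-dependent kinase, had 7.80 and 7.98 in Wt and 7.11 and 7.04 in mTg. Stim2, a sensor of calcium stores, had 3 regions with differences from -0.96 to -0.45. Of the 23 calcium handling genes listed, 3 (Pvalb, Jph1 and Camk2a) were nearest to a Quad-only hypoacetylated PMR and 1 to another hypoacetylated PMR, while 3 were nearest to hyperacetylated PMRs. The shares over all genes are given with the pathway lists below.

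Ext2, a polymerase of heparan sulfate, had 3 regions, the strongest in intron 8 with 8.08 and 8.34 in Wt and 6.82 and 6.65 in mTg. Sorbs2, an adaptor of the Z-disc and cell adhesions, also had 3, with differences from -1.47 to -0.99. Cdh4, which encodes R-cadherin, had 8.05 and 8.21 in Wt and 6.96 and 6.62 in mTg in intron 2. Rictor, a subunit of mTOR complex 2, had 7.77 and 7.97 in Wt and 6.52 and 6.60 in mTg in intron 31. The weakest of the 15 largest differences in level was 126515 bp from Mir350, with 5.94 and 6.04 in Wt and 4.75 and 4.63 in mTg. The differences at Ext2, Cdh4, Rictor and Mir350 were -1.48, -1.35, -1.31 and -1.30.

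Genes with 3 regions each included Acvr2a, a receptor of myostatin and activins. Its regions were intergenic and 515057 to 734407 bp from the TSS, with differences from -1.03 to -0.84. Gpd2, the mitochondrial glycerol-3-phosphate dehydrogenase, had differences from -0.79 to -0.59. Plxna1, a semaphorin receptor, had differences from -0.90 to -0.51, with 2 of its 3 regions inside Chchd6. Rxrg, a retinoid X receptor that pairs with other nuclear receptors, had differences from -0.69 to -0.54, and 1 of its regions was annotated to the 5′ UTR, 304 bp from the TSS, where levels were 6.00 and 6.17 in Wt and 5.54 and 5.56 in mTg.

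The pathway lists held 215 genes, of which 12 were nearest to 18 of the 453 regions. Of the 15286 genes nearest to any Wt or mTg H3K27ac peak, 2.53% were nearest to one of the 453 and 9.22% to one of the 1828 hyperacetylated PMRs, which are more numerous. No slow contractile gene (of 12) and no fatty acid or mitochondrial gene (of 25) was nearest to one, and 10 of those 25 were nearest to hyperacetylated PMRs. Of 18 fast contractile genes, 1 was, Mylk2, the skeletal myosin light chain kinase, at a region in intron 13 of Tpx2 with 5.82 and 5.78 in Wt and 4.85 and 5.01 in mTg. Of 30 glycogen and glycolysis genes, 2 were. Phkb, a subunit of phosphorylase kinase, had 2 regions in intron 2 (differences -0.98 and -0.66). Ppp1r3a, which targets protein phosphatase 1 to glycogen, had 1 region (-0.75), and 6 genes of this list, Ppp1r3a among them, were nearest to hyperacetylated PMRs.

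Of 60 muscle and fiber-type transcription factors, 4 were nearest to Quad-only hypoacetylated PMRs (Rxrg, Nfatc2, Eya4 and Fosl2) and 12 to hyperacetylated PMRs. Eya4, a transcriptional coactivator, differed by -0.55 in intron 2, and Fosl2, an AP-1 subunit, by -0.52 at an intergenic region. Rora, an orphan nuclear receptor, hosted 2 regions in intron 1 whose nearest TSS belonged to another gene (differences -0.89 and -0.80). Of the 35 growth and atrophy genes, Acvr2a was the one found, while 1 gene of that list was nearest to another hypoacetylated PMR and 6 to hyperacetylated PMRs. The 2 promoter regions were at Il4i1, an amino acid oxidase gene (7.41 and 7.53 in Wt, 6.71 and 6.62 in mTg), and Rsc1a1, a regulator of solute carriers (5.62 and 6.10 in Wt, 5.32 and 5.19 in mTg).

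The edges of the rule were as follows. The smallest Quad overlap of an included region was 28 bp, at a region nearest to Smurf2 with a difference of -0.47, and the closest Sol peak to an included region lay 119 bp away, near Mir6364 (difference -0.48). Just outside, a region nearest to Hic1 shared 26 bp with a Sol peak (difference -0.42). A Sol peak lay within 1000 bp of 13 of the 453, and the median gap to the nearest Sol peak was 15962 bp. The smallest difference of an included region was -0.37, near Zfand3.

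EDL and Dia were not used to choose the regions. An EDL H3K27ac peak overlapped 348 of the 453 regions (76.8%, Wilson 95% interval 72.7% to 80.5%). Of the Wt peaks of Quad without Sol, 56.4% overlapped one, and of all Wt peaks 64.7%. A Dia peak overlapped 84 (18.5%, 15.2% to 22.4%), against 32.1% and 55.8% in these backgrounds and 204 of 391 (52.2%) among the other hypoacetylated PMRs. These intervals describe counting error among regions, which do not stand for separate mice. The EDL share of the other hypoacetylated PMRs was 291 of 391 (74.4%), inside the interval of the 453, while their Dia share was above it. Many of these others had a Sol peak by the rule, and the paper found H3K27ac of Dia and Sol correlated, so their Dia share is tied to the rule. The tag total deposited for the second Dia H3K27ac library (19.2 M) is the one the paper lists for a Dia H3K4me2 library. Which library it is could not be settled, and all Dia H3K27ac values here rest partly on it.

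Width bears on these shares, since wider regions meet more peaks. A further background, added after the data were seen, kept the 1612 Wt peaks of Quad without Sol that were at least as wide as the median of the 453. In it the EDL share was 82.4% and the Dia share 45.6%. Among the 227 Quad-only hypoacetylated PMRs of that width the shares were 86.8% (81.8% to 90.6%) and 24.2% (19.1% to 30.2%). The wide Wt peaks were thus inside the interval for EDL and above it for Dia.

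By muscle, 279 regions (61.6%) had an EDL and no Dia peak, 69 both, 15 a Dia and no EDL peak and 90 (19.9%) neither. The median difference of mTg minus Wt was -0.69 with EDL only, -0.72 with both, -0.50 with Dia only and -0.52 with neither. Median widths were 1957, 2139, 1813 and 1577 bp in the same order. All 15 of the largest differences had an EDL peak, and 3 had a Dia peak (the regions nearest to Mir582, Vmn2r-ps11 and Ctu2). The 15 were at least 2279 bp wide.

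**Figure D2:**
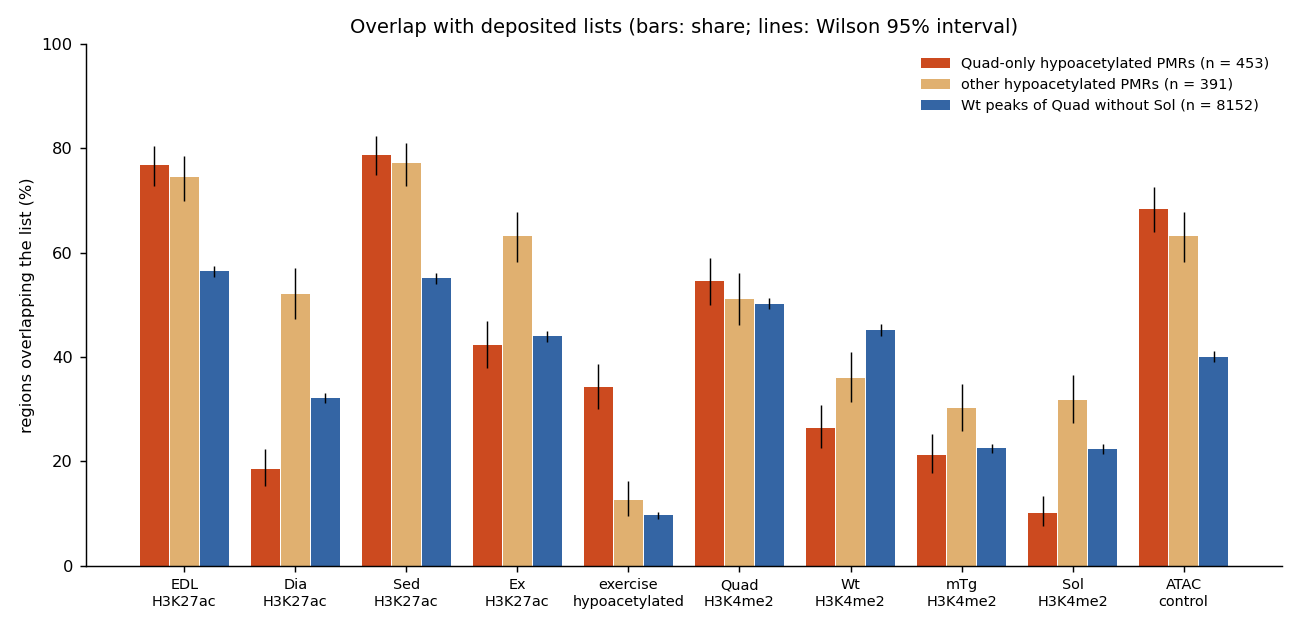
Share of regions (%) that overlapped each deposited list by at least 1 bp, for the 453 Quad-only hypoacetylated PMRs, the other 391 hypoacetylated PMRs and the 8152 Wt H3K27ac peaks of Quad without Sol; lines are Wilson 95% intervals. The 453 were at 18.5% in Dia and 34.2% in the exercise hypoacetylated list, against 32.1% and 9.67% of the Wt peaks.

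Peaks present in several lists were ranked within each list by their level per kb, because the lists were normalized separately. Where a peak was called at the 453 regions, its median percentile was 62.6 in Wt and 53.95 in Quad, both used by the rule. It was 45.2 in EDL, 45.2 in Sed, 30.8 in Ex and 18.6 in Dia. In mTg, which the rule also used, 102 regions kept a peak (22.5%, against 42.8% of Wt peaks of Quad without Sol), at a median percentile of 29.9. A low share and rank in mTg follow from the choice of regions, and the part of the lower mTg depth was not tested. In Dia 6 of the 84 peaks ranked above the 50th percentile, and in EDL 140 of 348 did. No background set was ranked in this way, so whether these ranks are particular to the 453 was not tested.

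**Figure D3:**
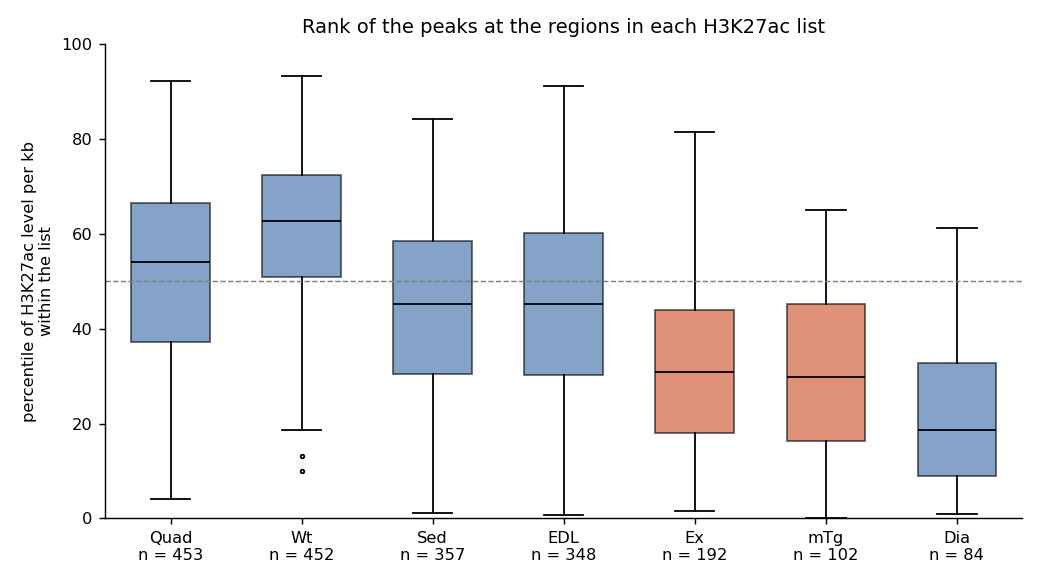
Percentile of the H3K27ac level per kb, within its own list, of the peak that best overlapped each Quad-only hypoacetylated PMR. Boxes show median and quartiles and n is the number of the 453 regions with a peak; Sol has none by the rule. Medians were 53.95 in Quad, 45.2 in EDL and 18.6 in Dia.

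EDL and Quad levels were set side by side at peaks matched one to one with a reciprocal overlap of at least 50%, as log2 level per kb centred on the median over all 22536 matched peaks. At 282 matched peaks of the 453 regions the median of EDL minus Quad was -0.22 (quartiles -0.44 and 0.02). Of these, 6 were over 2-fold lower in EDL with replicates that did not overlap (2.13%), and 0 were higher. Over all matched peaks 0.262% were lower and 0.382% higher. At the 3264 matched peaks of Wt peaks of Quad without Sol the median was -0.09, with 0.705% lower and 0.306% higher. A Quad peak was required of the regions and an EDL peak was not, so part of a value below 0 is fixed by the choice. The lists do not allow a test between them.

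Ex and Sed mice are other animals than Wt and mTg, so their lists did not enter the choice. Both contrasts are still measured from sedentary wild-type quadriceps. The backgrounds below are matched by muscle or width, and none by H3K27ac level, with which the difference in mTg went. The part of level in the overlap was not tested. A region of the exercise hypoacetylated list overlapped 155 of the 453 (34.2%, 30.0% to 38.7%). In the other hypoacetylated PMRs the share was 49 of 391 (12.5%), in Wt peaks of Quad without Sol 9.67% and in all Wt peaks 4.78%. From the side of exercise, 150 of its 2280 hypoacetylated regions were met (6.58%), since some wide exercise regions covered 2 of the 453. At the width of the median or more, the share was 42.7% of 227, beside 23.8% of the wide Wt peaks. In the exercise hyperacetylated list lay 3 regions (0.662%, against 0.736% of Wt peaks of Quad without Sol), nearest to Nova1, Gnpnat1 and Slc6a2.

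At the 155 regions, levels in the exercise list averaged 7.53 and 7.24 in the Sed libraries and 6.68 and 6.54 in the Ex libraries, or 7.39 ± 0.21 and 6.61 ± 0.095 (SD, n = 2). The median of Ex minus Sed was -0.77, close to the -0.76 over the whole exercise hypoacetylated list. These regions had a larger difference in mTg than those outside the list, with medians of -0.79 and -0.58, and were wider, with medians of 2279 and 1786 bp. Of the 58 regions lower by more than 1 in mTg, 41 were in the exercise list (70.7%). Among the 155, the differences in mTg and Ex had a Spearman's rho of 0.39 (Pearson's r 0.37). These are points across regions that share libraries and sometimes 1 exercise region, and no p-value is given.

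The largest differences with exercise were at Rictor and the adjacent region nearest to Osmr, the oncostatin M receptor gene. Both lay in 1 exercise region with 9.57 and 9.28 in Sed and 8.55 and 7.87 in Ex, a difference of -1.21. The Osmr region itself lies inside Rictor and had 6.63 and 6.98 in Wt and 5.64 and 5.56 in mTg.

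Both regions nearest to Cdk19, a kinase of the mediator complex, also shared 1 exercise region. There the level was 10.25 and 9.84 in Sed and 9.14 and 8.65 in Ex (difference -1.15), while mTg differed from Wt by -1.08 and -0.44. The exercise region over Mir582 and Pde4d measured 9.47 and 8.83 in Sed and 8.32 and 7.87 in Ex, a difference of -1.05. It was thus first of the 453 with the transgene and among the first 10 with exercise.

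Acsl3, a long-chain acyl-CoA synthetase gene, had 9.47 and 9.36 in Sed and 8.55 and 8.23 in Ex, and 4.33 and 4.39 in Wt against 3.98 and 3.95 in mTg. Its exercise region was wider than the region measured in mTg, so these levels are not of the same interval. Regions nearest to Fam134b, an endoplasmic reticulum autophagy receptor (host gene Myo10), and to the unnamed genes 4921525O09Rik, 1700049E15Rik and 5730420D15Rik completed the 10 largest, with exercise differences of -1.08, -1.14, -1.06 and -1.02 and mTg differences of -0.45, -0.84, -1.15 and -0.65.

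**Figure D4:**
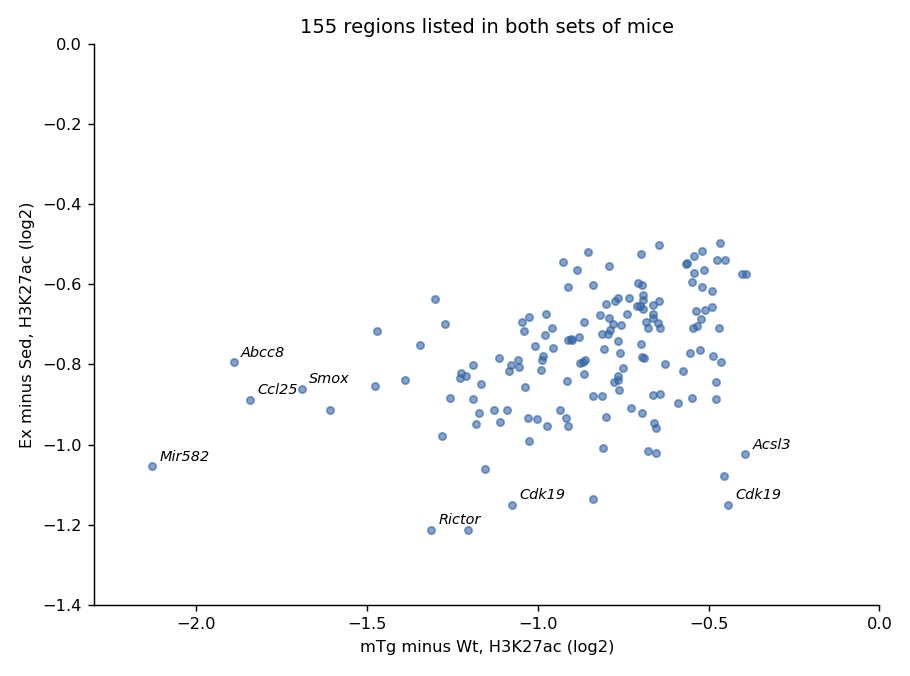
H3K27ac difference of mTg minus Wt (x axis, log2) against that of Ex minus Sed (y axis, log2) for the 155 Quad-only hypoacetylated PMRs that overlapped an exercise hypoacetylated region, 1 point per region. All points are below 0 on both axes because both lists hold hypoacetylated regions; the region nearest to Mir582 is at -2.13 and -1.05, and the Rictor region at -1.31 and -1.21.

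Of the 15 largest differences with the transgene, those at Cacnb3, Nfatc2 and Pvalb were not in the exercise hypoacetylated list. The other 12 of the 15 were. Absence from the list does not mean equal levels: where Ex and Sed peaks could be matched, Ex minus Sed was -1.37 at Cacnb3 and -0.61 at the stronger Nfatc2 region, with both Ex libraries below both Sed libraries. All 3 regions of Acvr2a, all 3 of Ext2, and 2 of 3 each of Gpd2, Plxna1 and Sorbs2 were in it, as was 1 of 3 each of Abcc8, Mir582, Rxrg and Stim2. Among regions with an EDL and no Dia peak 43.0% were in the exercise list, and among those with both peaks 33.3%. With a Dia and no EDL peak it was 13.3% (2 regions), and with neither 11.1%. These classes also differed in width and in the difference of mTg minus Wt, as given above.

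The peak lists of Ex and Sed were also read without the differential list. Sed carried a peak at 357 of the 453 regions (78.8%, against 55.1% of Wt peaks of Quad without Sol) and Ex at 192 (42.4%, against 44% of that background). The Sed share was 77.2% in the other hypoacetylated PMRs. Among wide regions it was 87.2%, beside 81.1% of wide Wt peaks. A Sed and no Ex peak was found at 195 regions and the reverse at 30. These joint counts were not made in the Wt peaks of Quad without Sol, where the Sed share was also the higher. At the 85 matched Ex and Sed peaks of these regions the median of Ex minus Sed was -0.43 (quartiles -0.90 and 0.17), relative to all 18430 matched peaks. Of the 85, 16 were over 2-fold lower in Ex (18.8%, against 2.47% over all matched peaks and 5.71% of the 1470 at Wt peaks of Quad without Sol) and 1 was higher (against 0.7%). With 80% reciprocal overlap the median was -0.23 at 29 matched peaks (quartiles -0.48 and 0.53), 16 of them below 0. Matching needs a peak in both groups, which 162 of the 453 regions had.

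H3K4me2, dimethylated lysine 4 of histone H3, marks enhancers and promoters, active or not. It was called at 247 of the 453 regions in Quad (54.5%, against 50.2% of Wt peaks of Quad without Sol) and at 46 in Sol (10.2%, against 22.4%). Among the other hypoacetylated PMRs Sol had it at 124 of 391 (31.7%). Absence of H3K27ac in Sol was set by the rule. The 46 regions with Sol H3K4me2 included Smox, Cacnb3 and both Nfatc2 regions. Among the 227 wide regions the Sol share was 11.0%, beside 21.3% of wide Wt peaks.

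In the libraries labelled Wt and mTg, H3K4me2 was called at 120 (26.5%, against 45.2%) and 96 regions (21.2%, against 22.5%). The Wt share was below the Quad share although both sets are sedentary wild-type quadriceps by their labels. Both lists had it at 52, Wt alone at 68 and mTg alone at 44. A matched peak pair existed at 26 regions, where the median of mTg minus Wt was 0.22 (quartiles -0.19 and 0.47), and 10 of the 26 were below 0. Of these 26, 0 were over 2-fold lower or higher, against 0.391% and 0.333% over all 19194 matched peaks. The mTg H3K4me2 libraries had 6.41 and 14.1 M tags, and the part of depth in these calls was not tested. The 0.22 concerns the minority of regions with called H3K4me2 in both groups.

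Accessible chromatin was mapped by ATAC-seq in control Quad, as 1 pooled list. A peak lay in 310 of the 453 regions (68.4%, 64.0% to 72.5%), against 40.1% of Wt peaks of Quad without Sol and 247 of 391 (63.2%) other hypoacetylated PMRs. At the median width or more it was 79.7% of 227, beside 64.5% of wide Wt peaks. The region at Cacnb3 and the Sorbs2 region with the largest difference held none. Of the 453, 24 held 2, those of Smox and Ctu2 among them.

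MED1, a subunit of the mediator complex that bridges enhancers and polymerase, had 1 library per muscle and few peaks at these regions. In Quad 7 regions had one (1.55%, against 0.54% of Wt peaks of Quad without Sol, 1.12% of the wide ones and 3.15% of all Wt peaks), among them those at Cacnb3, Acvr2a and the Rsc1a1 promoter. EDL had 2 (against 0.135%), Sol 3 (against 0.638%) and Dia 2 (against 0.331%). NFAT peaks of Quad met 0 of 453, which allows a share of up to 0.662% (background 0.0245%), and those of Sol met 12 (2.65%, background 2.02%), including Rictor, Phkb and Sorbs2os. The Sol NFAT share was 24 of 391 (6.14%) in the other hypoacetylated PMRs. Among the 227 wide regions it was 3.52%, beside 3.85% of wide Wt peaks. The factor libraries had no replicates.

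Factor words were counted in the central 500 bp of each region, on both strands, and in the same window of the Wt peaks of Quad without Sol. AGGTCA, the nuclear receptor half-site, occurred in 36.9% of the 453 (32.6% to 41.4%), against 32.8%, and the E-box CAGCTG in 33.3% (29.1% to 37.8%), against 30.5%. TGANTCA was found in 17.9% against 17.1%, the MEF2 word in 10.4% against 9.48%, and GGAATG in 23.4% (19.7% to 27.5%) against 25.8%. For each of the 5 words the background lay inside the interval of the 453 regions. GC content was alike, with medians of 46.2% and 46.4%.

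Within 200 bp around the centre of the ATAC peaks the windows were shorter and the shares lower. Among 327 such windows in the 453 regions, the E-box was in 31.2% (26.4% to 36.4%), against 24.5% of 3152 windows in Wt peaks of Quad without Sol. AGGTCA was in 27.2% (22.7% to 32.3%) against 20.9%, and GGAATG in 8.56% (5.99% to 12.1%) against 12.3%. TGANTCA was in 14.1% against 13.4% and the MEF2 word in 7.65% against 6.92%. The E-box and half-site backgrounds lay below the intervals here, and the GGAATG background above its interval. In 259 such windows of the other hypoacetylated PMRs the E-box share was 35.9%, above the 31.2% of the 453 and inside their interval. These are descriptions over regions, with no test, and a word is short enough to occur often by base composition alone.

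**Figure D5:**
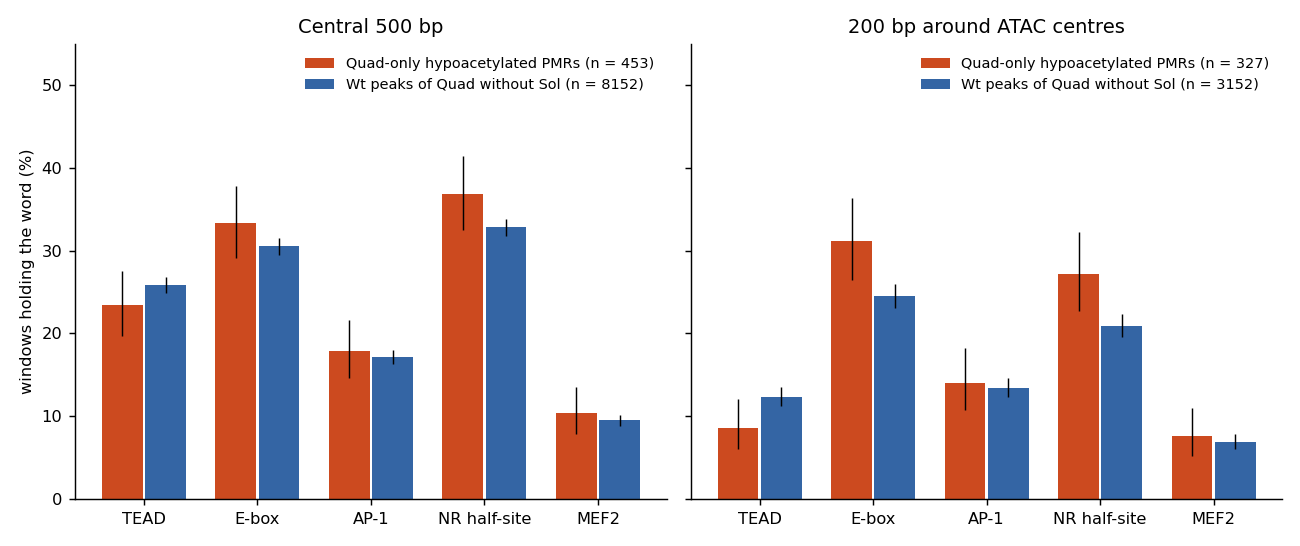
Share of windows (%) that held each word on either strand, in the 453 Quad-only hypoacetylated PMRs and in the Wt peaks of Quad without Sol, with Wilson 95% intervals. Left, the central 500 bp of each region; right, 200 bp around ATAC peak centres inside the regions, where the E-box was at 31.2% and 24.5%.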

How the data were processed

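The authors aligned ChIP-seq reads to mm10 with Bowtie (1.2 in the submitters' processing notes), kept 1 tag per position and called H3K27ac and H3K4me2 peaks over both replicates against input with HOMER. Tag columns of the deposited lists are log2 values, taken from the values and headers to be a regularized logarithm within each list. The authors' fold changes and p-values of mTg against Wt and Ex against Sed were not used. The authors' adjusted p-value and log2 enrichment over input served as filters in alternatives, the deposited ATAC score chose windows, and the deposited ATAC signal and MED1 and NFAT scores entered no result. No deposited file used here holds counts and lists were normalized separately, so no test was run; values are descriptions. Regions met when they shared 1 bp. Wilson intervals are at 95%. ATAC and footprint lists of another genome build were not used.

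Regions and gene lists were chosen with earlier results of these data known. Named regions were the 15 largest differences with the transgene, the 10 largest with exercise, promoter regions, genes nearest to 3 or more regions, and genes of the pathway lists; others (Rora, Smurf2, Mir6364, Hic1, Zfand3, and regions named for a peak or its absence) were chosen after their values were seen. A gene that this rule names is not reported here. Python 3.11.15, numpy 2.4.6 and pandas 2.3.3 were used, and the overlap code was checked on simulated data against bedtools 2.31.1.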

Additional observations from a re-analysis of the deposited data

How the results depend on the processing

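No paired analysis was possible because no result comes from a test and the replicate numbers mark no shared animal. The number of regions was 372 to 525 under 5 other rules for overlap, distance or peak strength. Without 1 library, the median of mTg minus Wt ran from -0.69 to -0.61, and that of Ex minus Sed from -0.92 to -0.61. With at least 50% of the region covered, the EDL share was 68.2% and the Dia share 11.9%. H3K4me2 shares were then 7.06% in Wt, 12.8% in mTg and 3.75% in Sol, with the order of Wt and mTg reversed. With peaks of 4-fold enrichment, EDL was 72.4% and Dia 14.8%. ATAC peaks above the median score met 26.9%. In 200 bp windows, TEAD was 8.56%, AP-1 14.1%, the half-site 27.2% and MEF2 7.65%, while the E-box stayed near its value (31.2%). Those windows are shorter and centred on ATAC peaks, and the part of either was not tested. The exercise share (33.1% at 50% coverage) and, with 80% reciprocal overlap, the medians of EDL minus Quad (-0.27) and of mTg minus Wt H3K4me2 (0.21) stayed near their values, while that of Ex minus Sed was nearer 0 (-0.23 in place of -0.43, cause not tested). With 2 libraries per group and no counts, the data limit these results to descriptions.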
